A study of Mus musculus with 12 samples.

Results

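Late-rise probes are array probes whose ratio of liver sample to reference stood above the fed level after 72 h of fasting. On average over 4 arrays of 12 and 24 h, it stood little or not above that level. They were selected on the deposited log ratios of sample over reference by 3 conditions. The mean of the 3 arrays of 72 h lay at least 0.2 on the log10 scale (1.58-fold) above the mean of the 3 fed arrays. Every 72 h array lay above every fed array. The mean of the 4 arrays 12 h replicates 1 and 3 and 24 h replicates 1 and 2, called the early arrays below, lay at most 0.05 on the log10 scale (1.12-fold) above the fed mean. Of 9196 probes with a gene name, 31 met all 3 conditions, which is 0.337%. Another 426 probes met the first 2 conditions but lay above the early limit. A further 23 probes that met the rule carry no gene name in the name version used and are not counted among the 31.

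The livers came from male FVB mice of 6 weeks that were fed freely or had chow removed for 12, 24 or 72 h in metabolic cages, with warming by an infrared lamp from 24 h on. Each of the 3 arrays per group held RNA pooled from 2 livers and labelled with Cy3, next to a reference pooled from 6 fed livers and labelled with Cy5 on every array. The dyes were never exchanged, so that dye effects of single probes do not cancel. Since each array held a pool, an SD between arrays is a spread between pools and not between mice. All mice were killed in the same hour of the morning.

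The arrays differed in quality and in the day on which their images were quantified. Median sample signal over local background was 3.5 on 24 h replicate 3 and 4.72 on 12 h replicate 2, and 5.34 to 10.6 on the other 10 arrays. Neither of these low-signal arrays was used by the rule. All 72 h arrays were quantified on the same day as fed replicates 2 and 3, the 4 early arrays on a day that held no fed array, and both low-signal arrays with fed replicate 1. For the early arrays, the lack of a difference from fed and the quantification day cannot be told apart. Nor can fasting time and quantification day in a difference between the early and the 72 h arrays. The software marked 24.7% of the probes on fed replicate 2 and 14.1% on fed replicate 3 as outliers, and at most 6.29% on any other array. The 4 hepatocyte marker probes, checked against the liver label, had a median log2 intensity of 15.2 against 8.37 for all named probes.

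In a fasting liver, glycogen is spent first, after which glucose is made from amino acids and glycerol and ketone bodies are made from fatty acids. Much of the change in mRNA that goes with this switch sets in within the first day, and transcripts that move only after days of food withdrawal follow another time course. The late-rise genes were chosen for that time course and fall into several groups by function. By their known roles, 7 of the 31 encode proteins that bind or process RNA, 8 act in chromatin and transcription, 4 in signalling or nuclear transport, 3 in small-molecule metabolism and 3 in cell structure and adhesion. Another 3 are single members of other systems, and 3 were assigned to no role. These roles were assigned after the members were known.

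As the values at 72 h and at the early arrays chose the probes, they are given as a description without a test. Over the 31 probes, the 72 h mean exceeded the fed mean by a median of 0.83 on the log2 scale (range 0.67 to 1.67), against 0.034 over all named probes. The early mean differed from fed by a median of 0.028 (range -0.66 to 0.16), against 0.060. Single arrays of 12 and 24 h could still stand above fed. Only 8 of the 31 probes had none of these 6 arrays above all fed arrays (18.1% of all named probes). Non-overlap of the 72 h and the fed arrays was one of the conditions, and it held for 13.1% of all named probes. Taken against fed replicates 2 and 3 alone, the 72 h arrays lay 0.83 higher at the median. The 72 h replicates were unequal, with medians of 0.66, 1.24 and 0.70 above the fed mean, and replicate 2 was the highest of the 3 in 23 of the 31 probes (37.5% of all named probes).

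**Figure D1:**
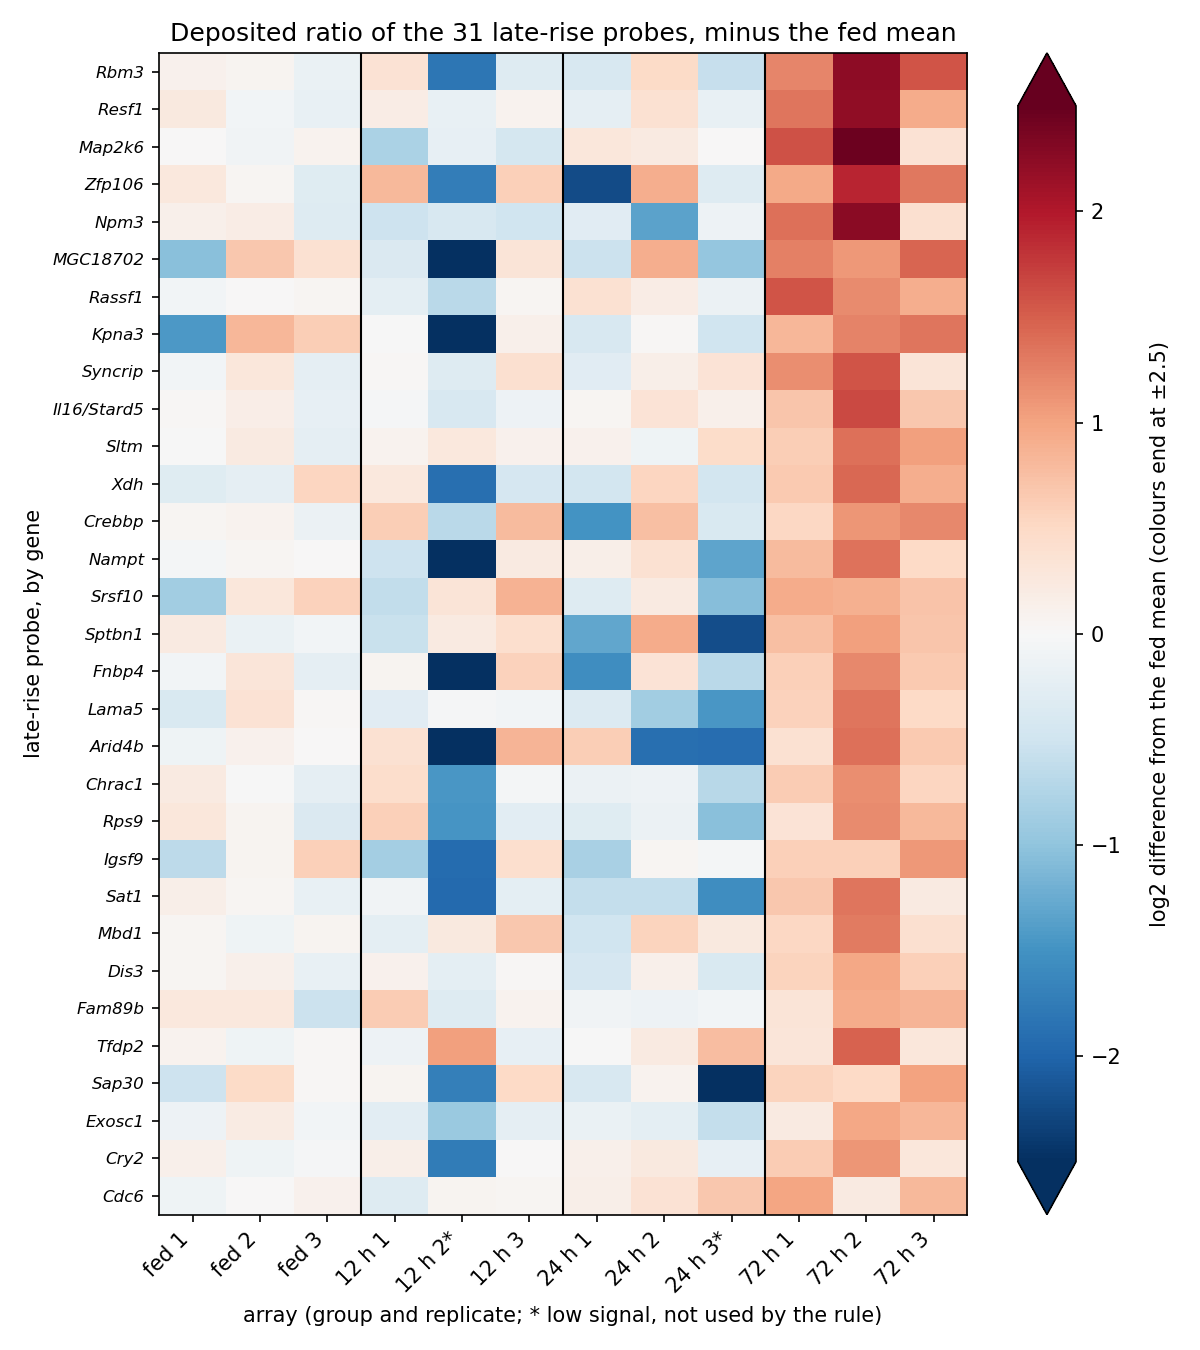
Deposited log2 ratio of the 31 late-rise probes (rows, ordered by the difference at 72 h) on the 12 arrays (columns), each minus the mean of the fed arrays of that probe; red is above and blue below the fed mean. All 3 columns of 72 h are red, with replicate 2 the strongest in most rows, and the 2 low-signal arrays, marked with an asterisk, hold the deepest blue.

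The late-rise probes were few beside those that stood above fed both early and at 72 h, and the limits cut through a continuous distribution. Just inside the size limit lay Cdc6, Cry2 and Exosc1 (72 h minus fed of 0.67, 0.67 and 0.68), and just outside it Rgs17, Itga5 and Srf (0.66, 0.65 and 0.64). Crebbp, Cry2 and Fam89b were the last inside the early limit (early minus fed of 0.16, 0.13 and 0.13), with Mynn, Dlgh2 and Crim1 just beyond it (0.17, 0.17 and 0.17).

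**Figure D2:**
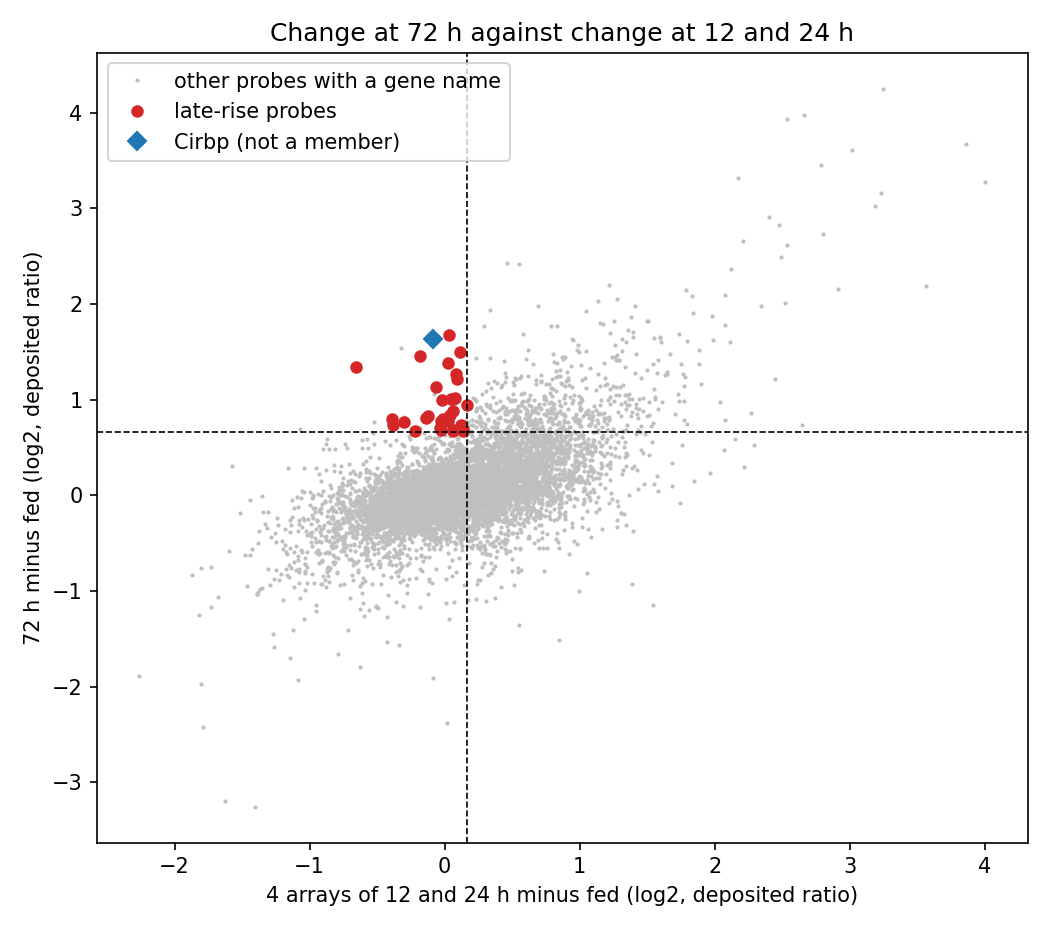
Difference of the 72 h mean from the fed mean (vertical) against that of the 4 early arrays (horizontal), both in log2 of the deposited ratio, for 9196 named probes; dashed lines are the limits of the rule. The 31 late-rise probes (red) occupy the upper left field above 0.66 and left of 0.17, where Cirbp (blue) also falls although 1 of its 72 h arrays missed the rule.

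Most start regions of the late-rise genes held more CpG than the median promoter. A promoter of 300 bases, 250 before and 50 after the start, was found in the RefSeq table (build GRCm38.p6) for 24 of the 30 genes with a current symbol, taking the first one listed for a gene. Their median GC content was 61.8%, against 52.7% over 27025 promoters, with a median of 24 CpG against 7. More than 7 CpG were found in 21 of the 24, and fewer in Sptbn1, Tfdp2 and Il16. Il16 is counted here although the description of its probe names Stard5, and without it the medians were 63.3% and 24. Il16 is also among the genes counted below for the CCAAT box. The GC box GGGCGG, searched on both strands, was held by 17 of the 24 (70.8%, against 35.9% of all promoters) and the CCAAT box CCAAT by 12 (50%, against 37.9%). The TATA box TATAAA was found in Resf1 only (4.17%, against 14.2%), the cyclic AMP response element TGACGTCA in Rps9 only (against 1.88%) and the E box CACGTG in Igsf9 only (against 7.24%). The letters searched for the NRF1 motif, the ETS motif (CCGGAAGT) and the YY1 motif were in none of these windows, and in 0.977%, 4% and 0.699% of all promoters. No comparison was made with genes matched for expression in liver, and a match is a run of letters and not a bound site. The 4 members with the largest difference at 72 h among those with a GC box are shown 5′ to 3′ with the GC box, CCAAT box and TATA box in capitals, Resf1 from chr6:149309164-149309463 (plus strand), Zfp106 from chr2:120563810-120564109 (minus strand), Npm3 from chr19:45749516-45749815 (minus strand) and Rassf1 from chr9:107551305-107551604 (plus strand).
Resf1: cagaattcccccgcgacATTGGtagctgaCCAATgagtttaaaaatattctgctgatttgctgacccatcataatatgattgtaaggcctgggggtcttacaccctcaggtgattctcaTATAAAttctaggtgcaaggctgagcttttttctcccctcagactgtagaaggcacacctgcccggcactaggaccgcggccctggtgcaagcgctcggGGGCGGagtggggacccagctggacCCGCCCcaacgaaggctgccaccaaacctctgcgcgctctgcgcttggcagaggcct
Zfp106: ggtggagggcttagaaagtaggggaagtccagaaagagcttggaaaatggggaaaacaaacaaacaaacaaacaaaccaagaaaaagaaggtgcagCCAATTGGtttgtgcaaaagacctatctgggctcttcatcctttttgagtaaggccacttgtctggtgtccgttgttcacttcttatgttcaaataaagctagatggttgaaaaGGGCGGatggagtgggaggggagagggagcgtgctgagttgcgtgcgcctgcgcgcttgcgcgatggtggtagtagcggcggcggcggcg
Npm3: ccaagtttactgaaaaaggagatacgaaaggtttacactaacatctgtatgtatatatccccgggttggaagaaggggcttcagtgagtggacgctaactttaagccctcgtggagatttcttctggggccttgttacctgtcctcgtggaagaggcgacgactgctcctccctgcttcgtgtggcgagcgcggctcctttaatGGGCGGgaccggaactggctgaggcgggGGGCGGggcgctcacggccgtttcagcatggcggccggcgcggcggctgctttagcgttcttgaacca
Rassf1: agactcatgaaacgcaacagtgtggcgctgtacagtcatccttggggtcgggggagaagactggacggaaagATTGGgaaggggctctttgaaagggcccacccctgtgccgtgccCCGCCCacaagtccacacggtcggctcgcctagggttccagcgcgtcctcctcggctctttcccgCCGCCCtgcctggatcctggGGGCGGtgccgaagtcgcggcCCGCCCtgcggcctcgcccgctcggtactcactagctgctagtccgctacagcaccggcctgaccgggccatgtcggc
Resf1 held a GC box on either strand close to the start, Zfp106 a single one beside overlapping CCAAT boxes of both strands, Npm3 2 on the coding strand and Rassf1 4 spread over both strands. The promoter of Map2k6, whose difference at 72 h was as large, held none of the motifs searched.

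Among the genes for RNA-binding and RNA-processing proteins, Rbm3 showed the largest difference of all 31. Rbm3 encodes a small RNA-binding protein that is induced by mild cold and promotes translation. Listed by replicate 1, 2 and 3, its deposited log2 ratios were 0.14, 0.12 and -0.13 on the fed arrays, 0.41, -1.77 and -0.28 at 12 h, -0.36, 0.53 and -0.53 at 24 h and 1.26, 2.28 and 1.60 at 72 h. The 72 h arrays stood clear of the other 9, and the lowest value of all was on the low-signal 12 h array. The mean was 0.042 ± 0.15 (SD, n = 3) in fed liver and 1.72 ± 0.52 at 72 h, which is 3.19-fold. The other cold-inducible protein of this kind, Cirbp, was not a member. Its log2 ratios were 0.69, -0.073 and -0.026 on the fed arrays, 0.29, 1.08 and -0.19 at 12 h, 0.067, 0.26 and 0.65 at 24 h and 1.84, 3.00 and 0.67 at 72 h. Its 72 h mean lay 1.64 above fed and its early mean -0.089 from it, and the rule was missed because 72 h replicate 3 (0.67) fell just below fed replicate 1 (0.69).

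Zfp106, a zinc-finger protein that binds RNA, is named Sh3bp3 in one version of the array's names. Its ratios were 0.69, 0.48 and 0.12 on the fed arrays, 1.24, -1.30 and 1.03 at 12 h, -1.81, 1.35 and 0.11 at 24 h and 1.38, 2.33 and 1.74 at 72 h. At 12 h replicates 1 and 3 and 24 h replicate 2 it was about as high as on the lowest 72 h array, while 24 h replicate 1 lay far below the fed arrays. Without that array the early mean was 0.77 above fed in place of 0.021, so that Zfp106 is a late riser by the rule only through this array. Syncrip, an hnRNP-like protein that binds mRNA, differed by 1.02 and Sltm, a SAFB-like modulator of transcription with an RNA-binding domain, by 1.00 at 72 h. Srsf10, a splicing regulator of the SR family, differed by 0.84, Dis3, the catalytic ribonuclease of the RNA exosome, by 0.71 and Exosc1, a subunit of its cap, by 0.68. Of the 12 named exosome probes, 8 lay above fed at 72 h, where 56.6% of all named probes did, with a median of 0.077. Of 20 SR family probes, 16 lay above fed at 72 h, with medians of 0.44 at 72 h and 0.39 on the early arrays. The 23 hnRNP probes gave 0.27 and 0.37. These family lists were written after the members were known. Their counts and medians, and those of the lists below, include the late-rise probes, which the rule placed above fed at 72 h.

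In the chromatin and transcription group, Resf1 led with a 2.82-fold difference. Resf1 encodes a factor for silencing of retroelements. Its ratios were 0.18, -0.14 and -0.24 on the fed arrays, 0.12, -0.26 and 0.028 at 12 h, -0.30, 0.31 and -0.26 at 24 h and 1.28, 2.15 and 0.86 at 72 h, and the 72 h arrays lay above every other array. Npm3, a nucleoplasmin of the nucleolus that takes part in ribosome formation, gave 0.63, 0.70 and 0.18 on the fed arrays, -0.015, 0.11 and 0.0091 at 12 h, 0.22, -0.84 and 0.37 at 24 h and 1.89, 2.76 and 0.90 at 72 h. All of its 12 h arrays lay below every fed array and all of its 72 h arrays above, the lowest of these only 0.20 above the highest fed array. The related Npm1 stood above fed at both times, by 1.27 on the early arrays and 1.42 at 72 h.

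Crebbp, the CBP coactivator and histone acetyltransferase, gave -0.24, -0.19 and -0.44 on the fed arrays, 0.32, -0.96 and 0.49 at 12 h, -1.79, 0.46 and -0.67 at 24 h and 0.23, 0.82 and 0.91 at 72 h. Its early arrays were split, since 3 of the 4 reached the lowest 72 h array and 24 h replicate 1 lay at -1.79. Arid4b, a subunit of the Sin3 histone deacetylase complex, showed the same kind of split with -1.97 on 24 h replicate 2. Sap30, another Sin3 subunit, differed by 0.68 at 72 h, Chrac1, a histone-fold protein of a chromatin remodelling complex, by 0.78, Mbd1, which binds methylated CpG, by 0.73, and Tfdp2, a dimerization partner of E2F factors, by 0.69. Of 18 probes for Sin3 and histone deacetylase subunits, Arid4b and Sap30 among them, 11 lay above fed at 72 h. This was close to the share of all named probes (56.6%), and the median was 0.10.

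Among the signalling genes, Map2k6, the kinase that activates p38 MAP kinases, gave 0.19, 0.10 and 0.28 on the fed arrays, -0.61, -0.019 and -0.25 at 12 h, 0.48, 0.42 and 0.19 at 24 h and 1.78, 2.64 and 0.55 at 72 h. Its 72 h replicates covered 2 log2 units, with replicate 3 just above the highest 24 h array. Rassf1, a scaffold that links Ras-type signals to the Hippo pathway and to microtubules, was the tightest of the leading members, with -0.09, -0.003 and 0.038 on the fed arrays, -0.27, -0.70 and 0.031 at 12 h, 0.37, 0.17 and -0.16 at 24 h and 1.55, 1.17 and 0.89 at 72 h. Its fed mean was -0.018 ± 0.066 and its 72 h mean 1.20 ± 0.33 (SD, n = 3). Kpna3, an importin alpha that carries proteins into the nucleus, differed by 1.13, but its fed arrays were spread from -1.17 to 1.09, and against fed replicates 2 and 3 alone the difference was 0.41. Fnbp4, a formin-binding protein, differed by 0.81.

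**Figure D3:**
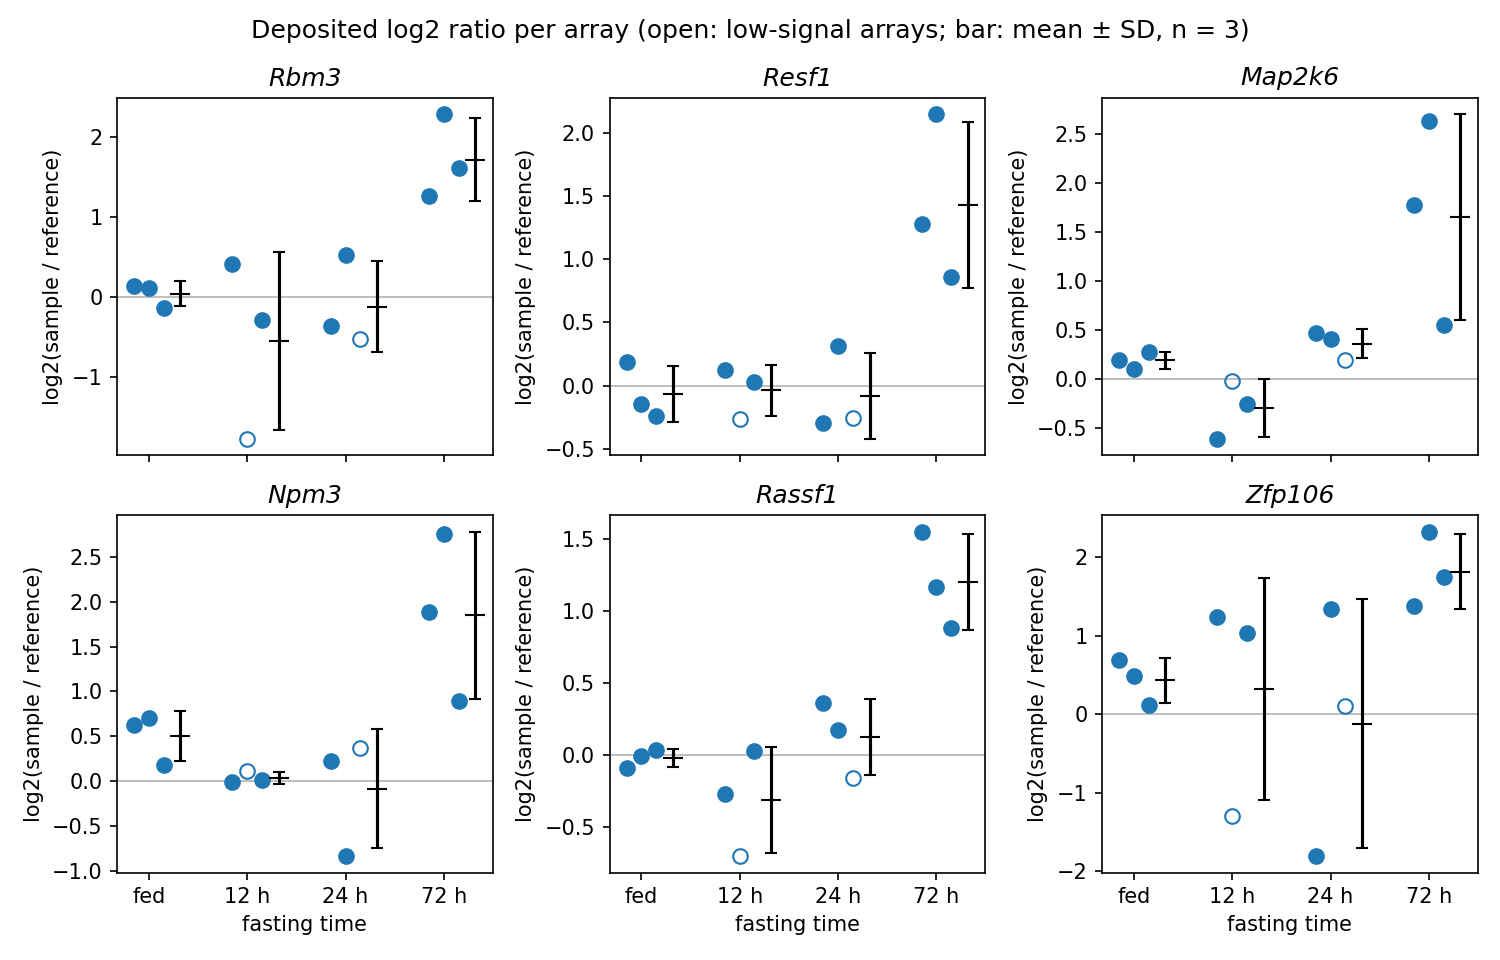
Deposited log2 ratio of sample over reference for 6 leading late-rise genes by fasting time; points are single arrays, open points the low-signal arrays, and bars the mean with its SD (n = 3). In Rbm3, Resf1, Npm3 and Rassf1 the 72 h points stand above all 9 others, whereas in Zfp106 3 arrays of 12 and 24 h come within 0.4 of the lowest 72 h point.

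For metabolism, Xdh, the last enzyme of purine breakdown to uric acid, differed by 1.00 and Sat1, which acetylates spermidine and spermine for breakdown or export, by 0.74. Nampt, the rate-limiting enzyme of NAD salvage, gave 0.032, 0.13 and 0.091 on the fed arrays, -0.44, -3.93 and 0.31 at 12 h, 0.24, 0.46 and -1.24 at 24 h and 0.88, 1.43 and 0.57 at 72 h. The fed arrays of Nampt agreed within 0.10 and the 72 h arrays lay above all others, and the value of -3.93 on the low-signal 12 h array was among the lowest of any member. Sat1 had ratios of 0.60, 0.50 and 0.28 on the fed arrays, 0.38, -1.49 and 0.21 at 12 h, -0.13, -0.15 and -1.09 at 24 h and 1.12, 1.79 and 0.68 at 72 h. All of its 24 h arrays lay below every fed array. A further probe is named Il16 in one version of the names and Stard5, a sterol-binding protein, in the other. Its description names Stard5 in both versions, and it differed by 1.01. A separate probe named Il16 lay -0.083 from fed at 72 h.

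Of the structural genes, Sptbn1 (non-erythroid beta spectrin) differed by 0.83, Lama5 (a laminin chain of basement membranes) by 0.80 and Igsf9 (an adhesion protein of the immunoglobulin superfamily) by 0.76. Lama5 had ratios of -0.72, 0.022 and -0.31 on the fed arrays, -0.61, -0.37 and -0.40 at 12 h, -0.68, -1.21 and -1.79 at 24 h and 0.23, 1.01 and 0.16 at 72 h, and its early mean lay -0.39 from fed. Cry2, a repressor of the circadian clock, gave 0.34, 0.10 and 0.17 on the fed arrays, 0.35, -1.55 and 0.20 at 12 h, 0.34, 0.45 and -0.00028 at 24 h and 0.83, 1.30 and 0.49 at 72 h. In the same list of 13 clock probes, Clock and Arntl, the activators of the clock, lay above fed at both times, by 1.20 and 1.18 on the early arrays and by 1.17 and 1.38 at 72 h. The list as a whole had medians of 0.028 on the early arrays and 0.14 at 72 h. At 72 h, 9 of its 13 probes, Cry2 among them, lay above fed, where 56.6% of all named probes did. Cdc6, a loading factor for DNA replication, differed by 0.67, and was the only member among 62 cell-cycle probes, whose median was -0.062. Rps9, a protein of the small ribosomal subunit, differed by 0.77. A second Rps9 probe, named only in the other version of the names, also met the rule, with 0.77 at 72 h and 0.085 on the early arrays. The 59 ribosomal probes had a median of 0.36 on the early arrays and 0.46 at 72 h. As ribosomal protein genes have many near-identical copies in the genome, the Rps9 probe may read more than one. MGC18702 and Fam89b, without a role assigned here, differed by 1.27 and 0.70. The Fam89b probe is named Mtvr2 on the arrays, but one version of its description names Sssca1, so that its gene is not settled.

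Of 32 gene lists for liver metabolism, growth, immunity and cell types, 2 held a late-rise probe, namely ribosomal proteins (Rps9) and cell cycle (Cdc6). Since 0.337% of all named probes were members, a list without one says nothing about its pathway. The 20 probes for fatty-acid oxidation and ketone bodies had a median of 0.74 above fed on the early arrays, and the 28 for amino-acid catabolism and the urea cycle 1.18. The 18 probes for PPARalpha and hormone targets of fasting had medians of 0.83 early and 1.11 at 72 h. The 32 lists include 11 of cell-type markers with 30 probes in all, whose medians at 72 h lay between -0.33 (macrophage, 3 probes) and 0.18 (stellate cells and fibroblasts, 6 probes) and that of hepatocyte markers at -0.12 (4 probes). In whole liver, fewer cells of a type and less RNA per cell cannot be told apart.

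The limma fit over all probes gave the one comparison that the rule did not use, 24 h against 12 h. No late-rise probe passed it. Among 20116 probes tested, 0 reached a Benjamini-Hochberg adjusted p under 0.05 with a 1.4-fold change in limma, and 190 had an unadjusted p under 0.05 (0.945%, and 0.467% with the higher value at 24 h). The late-rise probes gave 0 of 31 by either measure, with a median difference of 24 h minus 12 h of -0.050 on the reprocessed log2 ratio. The smallest unadjusted p among them was 0.172. A difference between 12 h and 24 h was thus not detected for any of the 31, and the SE for Rbm3 was 0.33 around a difference of -0.14. As 0 of all probes were called, this does not set the late-rise probes apart. MGC18702 was well above background on 0 of the 12 h arrays, and Srsf10, Sptbn1 and Igsf9 on 1 each. For such dim probes the comparison cannot show that 12 h and 24 h were alike.

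For 72 h against fed and 72 h against 24 h, which the rule did use, the counts are descriptions. In the limma fit of 72 h against fed, 2 of 20081 probes were called (0.00996%) and 0 of the 31, the smallest adjusted p of a member being 0.75. At an unadjusted p under 0.05, 9 of the 31 were higher at 72 h, against 1.12% of all probes. Those 9 were Rbm3, Resf1, Map2k6, Npm3, Rassf1, Syncrip, the Il16/Stard5 probe, Sltm and Lama5. With both low-signal arrays left out, 168 of 20104 probes were called for 72 h against fed, and 3 of these were late-rise probes. They were Rbm3 (1.49, SE 0.24), Resf1 (1.16) and Rassf1 (0.82), with adjusted p of 0.0268, 0.0403 and 0.0313 in limma. For 72 h against 24 h, 0 of 20087 probes were called with all arrays (686 at an unadjusted p under 0.05, 3.42%), with 16 of the 31 higher at 72 h by the unadjusted p against 1.62% of all probes. The count was 262 of 20109 probes without the low-signal arrays. Rbm3 and Sat1 were then the 2 late-rise probes called, by 1.41 and 1.13. Without the low-signal arrays, the 24 h and the 72 h arrays shared no quantification day, so that fasting time and day cannot be told apart.

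The sample and the reference channel were also examined apart, after background correction and quantile normalization over all 24 channels. The reference channel carried the same RNA pool on every array. Over the 31 probes, the sample channel was 0.35 higher at 72 h than in fed liver at the median, and the reference channel 0.24 lower (-0.24, lower in 25 of the 31). All named probes had medians of 0.014 and -0.026. Part of the difference in the ratio thus lay in a lower reference signal. Fed replicate 1 was brighter than the fed mean for these probes in both channels, by 0.38 in the sample and 0.35 in the reference channel. Against fed replicates 2 and 3 alone, which share their day with the 72 h arrays, the sample channel was 0.51 higher and the reference channel -0.047 different, and every 72 h array lay above both of these fed arrays in the sample channel for 19 of the 31 probes (24.3% of all named probes).

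The contrast between 72 h and the early arrays, in which fasting time and quantification day cannot be told apart, differed more between the channels. From the early arrays to 72 h the sample channel changed by a median of 0.046, and the reference channel by -0.38, higher in only 3 of the 31 probes. All named probes moved by -0.061 and -0.055. In the sample channel, every 72 h array lay above all 4 early arrays for 3 of the 31 probes, Sptbn1, Lama5 and Igsf9, against 18.1% of all named probes. By the same rule on the sample channel alone, 35 named probes qualified, and of the 31 late-rise probes only Lama5 was among them. The ratio corrects for how much probe and hybridization a spot received, which a single channel does not, and which of the 2 readings is nearer to the tissue level was not tested.

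Genes differed in this respect. For Rbm3 the sample channel was 0.96 higher at 72 h than in fed liver and 1.07 higher than on the early arrays, for Map2k6 1.24 and 1.02, for Npm3 0.85 and 1.19, for Lama5 0.79 and 1.12, and for Resf1 0.75 and 0.62. Rassf1 followed with 0.79 and 0.43. In contrast, the sample channel was not higher at 72 h than in fed liver for Sltm (-0.43), Exosc1 (-0.28) and Rps9 (-0.023). Their reference channel was lower by more (-1.0, -0.67 and -0.73). Against fed replicates 2 and 3 alone, their sample channel was higher at 72 h, by 0.42, 0.34 and 0.40. By that measure it was higher for 29 of the 31 probes, but not for Kpna3 (-0.16) and MGC18702 (-0.024). Sltm had sample-channel log2 intensities of 9.52, 7.09 and 6.85 on the fed arrays and 7.25, 7.60 and 7.32 at 72 h, and reference-channel intensities of 9.58, 6.96 and 6.94 and 6.91, 6.79 and 6.77. Fed replicate 1 was high in both channels, and fed replicates 2 and 3 lay below the 72 h arrays in the sample channel. Every 72 h array lay above all fed arrays in the sample channel for 6 of the 31, namely Rassf1, Xdh, Sptbn1, Lama5, Sap30 and Cry2 (8.68% of all named probes).

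**Figure D4:**
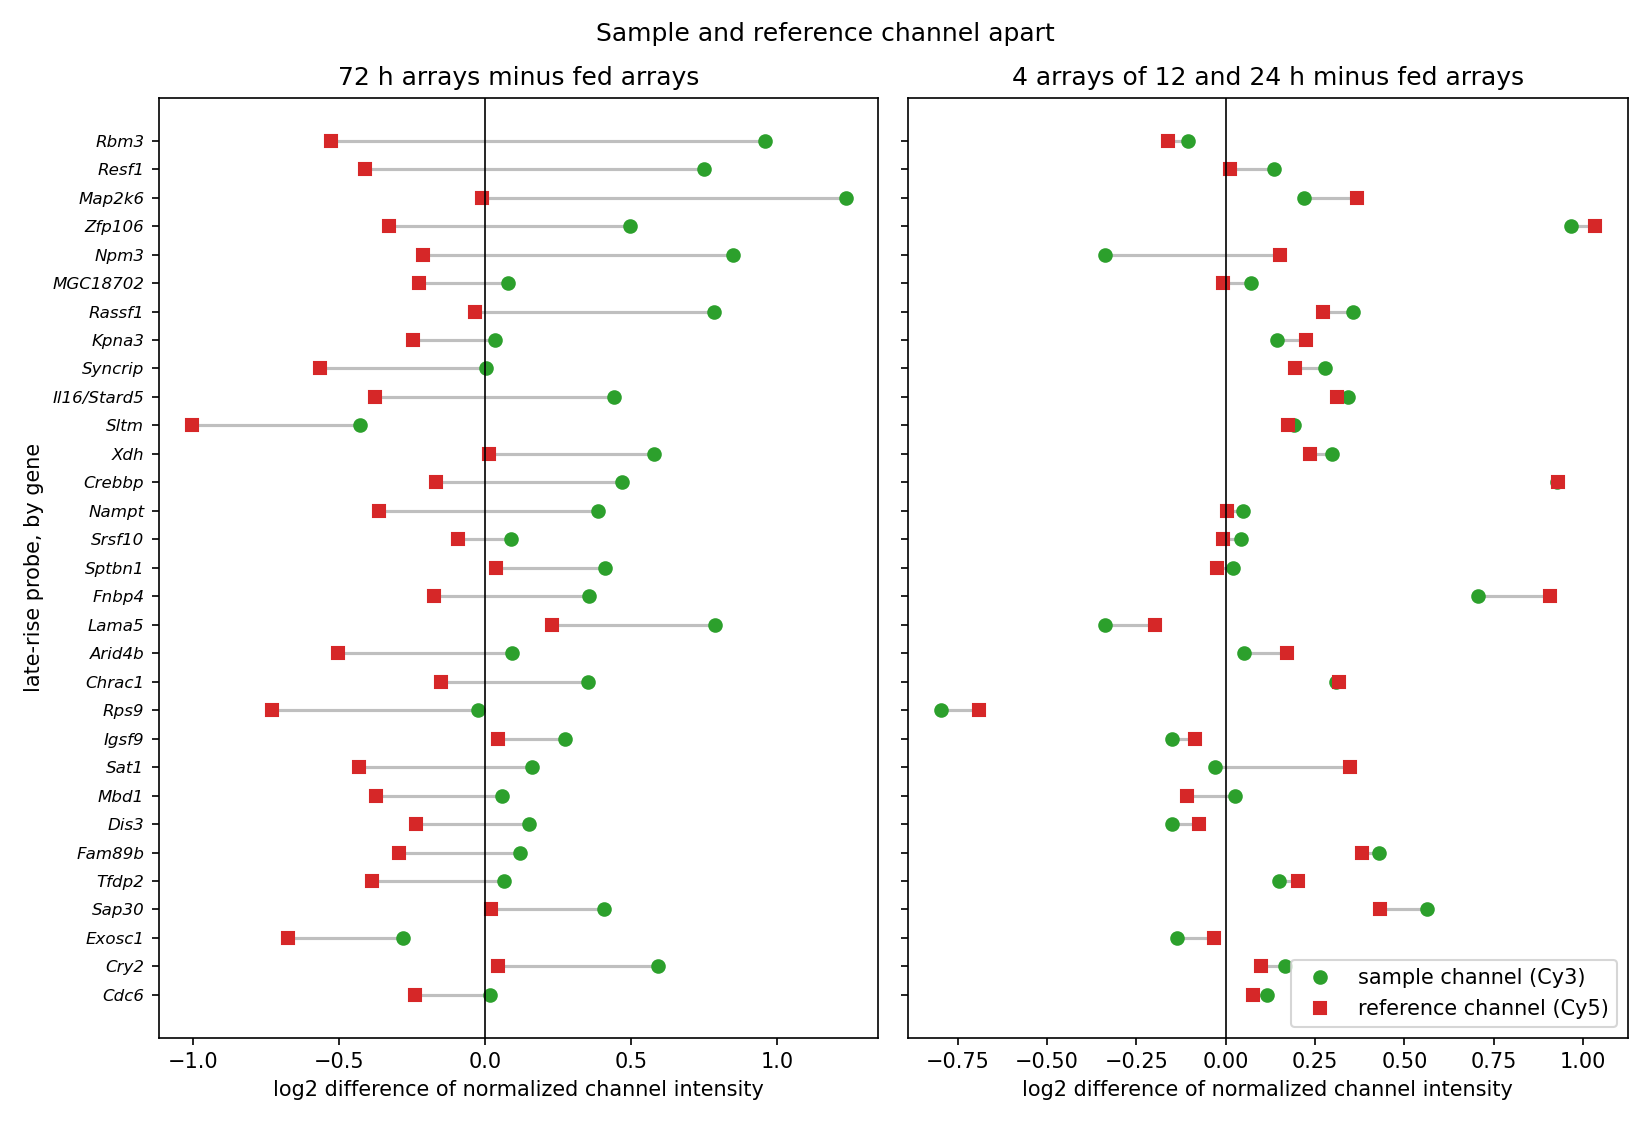
Change of the sample channel (green circles) and of the reference channel (red squares), in log2 of normalized intensity, for the 31 late-rise probes; left, 72 h arrays minus fed arrays, right, the 4 early arrays minus fed arrays. On the left the circles lie right of the squares throughout, through a higher sample channel in Map2k6 (1.24) and a lower reference channel in Sltm (-1.0), and on the right the channels lie closer together, with the widest gap in Npm3.

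Single spots on the early arrays weighed on the selection. For 3 of the 31 probes, Zfp106, Crebbp and Fnbp4, the reference channel of 24 h replicate 1 was more than 4-fold brighter than on any other of the 10 arrays used by the rule, and 0.761% of all named probes had such a spot on an early array. Their reference intensities there were 10.3, 10.6 and 10.1 on the log2 scale, against next highest values of 7.59, 7.98 and 7.82. Arid4b had a like spot on 24 h replicate 2 (10.2 against 8.35). With the median of the 4 early arrays in place of the mean, 26 of the 31 kept within the early limit. Zfp106, Crebbp, Arid4b, Fnbp4 and Nampt did not. Leaving out 24 h replicate 1 kept 20 of the 31, and leaving out 72 h replicate 2 kept 18. Rbm3 and Resf1 were among those lost without 24 h replicate 1, with early means of 0.18 and 0.22 above fed. With its own lowest early array left out, which can only raise the early mean, 14 of the 31 kept within the early limit.

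For 13 of the 31 probes, 1 array moved the difference of 72 h from fed by more than 1.5 times. Without fed replicate 1 it was 0.75 in place of 1.27 for MGC18702, 0.41 in place of 0.84 for Srsf10, 0.43 in place of 0.76 for Igsf9 and 0.43 in place of 0.68 for Sap30, and Kpna3 is given above. In these 5 probes fed replicate 1 was the lowest fed array. Without 72 h replicate 2, the difference was 0.97 for Map2k6, 0.89 for Npm3, 0.53 for Lama5, 0.51 for Arid4b, 0.44 for Sat1, 0.46 for Mbd1 and 0.30 for Tfdp2. Without fed replicate 3 it was 0.43 for Fam89b. After quantile normalization with all arrays, the differences of MGC18702, Kpna3, Srsf10 and Igsf9 were 0.30, 0.28, 0.18 and 0.23.

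The low-signal arrays took no part in the selection, and on them the late-rise probes lay lower than other probes. The fed arrays they are set against did take part, so that this is not an independent check. The median difference from fed was -0.68 on 12 h replicate 2 and -0.38 on 24 h replicate 3, against -0.27 and -0.18 over all named probes. On 12 h replicate 2, 23 of the 31 lay below all fed arrays (53.7% of all named probes), and on 24 h replicate 3, 19 of the 31 (49.8%). Fnbp4 reached -5.84 on the first and Sap30 -5.01 on the second. Against fed replicate 1, which was quantified on the same day, the medians were -0.72 and -0.34. After reprocessing from the scanner intensities, the median of their mean was -0.20 in place of -0.76, and it was -0.061 in the sample channel alone. Over all 6 arrays of 12 and 24 h, 21 of the 31 probes stayed below their lowest 72 h array throughout (5.37% of all named probes).

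Late-rise probes were dimmer than other named probes. Their median log2 intensity in the sample channel was 7.46 against 8.37, and 20 of the 31 were well above background on all 12 arrays, against 86.8% of named probes. All 31 were well above background on the 72 h arrays and 27 on the fed arrays. MGC18702 was the dimmest (6.04), being above background on 6 of the 12 arrays and on none of 12 h, whereas Rps9 (12.2) was the brightest. Marks as outlier touched 5 of the 31 on at least 1 array (41.7% of named probes) and none on a 72 h array.

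Other named probes for the same genes were present for 17 of the members' genes, 28 probes in all. At 72 h, 20 of these 28 lay above fed, with a median difference of 0.22 (range -0.47 to 2.20), against 56.6% of all named probes above fed, and 7 had every 72 h array above every fed array, against 13.1%. For Resf1, a second probe differed by 1.77 with 0.29 on the early arrays, and another by 0.32. Of 2 other Nampt probes, one gave 0.49 with -0.21 on the early arrays, with all 72 h arrays above fed, and the other 0.21 without that separation. Fnbp4 had another probe at 2.20, which stood 1.22 above fed on the early arrays, and Crebbp one at 0.95 with 1.37 early. The other probes of Lama5 (0.07), Dis3 (-0.061), Sltm (-0.095), Tfdp2 (-0.030) and Fam89b (-0.018) lay within 0.1 of fed. For Zfp106 the other probes gave 0.23, 0.37 and -0.11, for Syncrip 0.073 and 0.11, and for Kpna3 -0.47 and 0.31. Thus probes of one gene disagreed in several cases, on arrays whose names date from their design. Rbm3, Map2k6, Npm3 and Rassf1 were each represented by a single named probe.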

How the data were processed

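Liver RNA pools were hybridized to 12 oligonucleotide arrays of Agilent with 2 colours. Per the file headers, the scanner's Feature Extraction software gave spot intensities with local background and flags, and its log ratios were background-subtracted and dye-normalized by lowess within each array. The log10 ratios deposited by the authors were those of the same files with the sign turned to sample over reference, to within 4.98e-08 over 257352 values. Of 21446 spots, 1075 controls and 91 retired spots were left out, leaving 20280 probes, of which 9196 carried a gene name on the 3 arrays with curated names. The other 9 arrays name every spot. Current symbols were found for 8790 named probes. No genome build is given for the arrays, and the promoters were taken from build GRCm38.p6.

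Members were taken on the deposited log10 ratios, shown here on the log2 scale. For tests, intensities were background-corrected by normexp (offset 50), quantile-normalized over 24 channels, and fitted with limma 3.58.1 in R 4.3.3 over all 12 arrays and 4 groups. Outlier spots were set to missing, and a probe entered the fit if the software found its sample signal well above background throughout 1 group or more. Calls were made at 1.4-fold or more with p, adjusted by Benjamini-Hochberg, below 0.05. Nothing in the labels ties a replicate number to a shared animal or day. The number of arrays limits the precision. Python 3.11.15, pandas 2.3.3, numpy 2.4.6 and matplotlib 3.10.9 were used for the rest.

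The members and lists were chosen with earlier results of these data known, and the family lists and roles were written after the members were seen. By rule, the text names the 15 members with the largest difference, those on a gene list, and the 3 just inside the size limit. The other members, other probes and family genes were named after their values were seen.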

Additional observations from a re-analysis of the deposited data

Results flagged for a closer look

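In 4 of the 31 late-rise probes, every array of 12 h or every array of 24 h lay below every fed array. This share was close to that of all named probes (10.6%) and does not set the late-rise probes apart. That every 72 h array lay above was a condition of the selection, and the early limit favours low values at 12 and 24 h. The 12 h mean of Map2k6 lay -0.48 from fed on the log2 scale, while all but 1 of its 24 h arrays lay above every fed array, and that of Npm3 -0.47. For Sat1 the 24 h mean lay -0.91 from fed. Exosc1 was below at both times, by -0.47 at 12 h and -0.33 at 24 h. The difference between the times was not tested, since the 72 h values chose the probes, and each of these means holds 1 low-signal array.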

How the results depend on the processing

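The median difference at 72 h was 0.83, and 0.56 after quantile normalization, 0.67 after loess and 0.35 in the sample channel alone. With single fed or 72 h arrays left out it ran from 0.74 to 0.93, where the rule itself fixes the direction. The rule was met by 12 probes after quantile normalization (9 of them among the 31), 27 after loess (15 among the 31), 177 with all 6 arrays of 12 and 24 h, 14 with an early limit of 0 and 12 with a minimum of 0.3 on the log10 scale. It was met by 25 (without 24 h replicate 1) to 62 probes (without 72 h replicate 1) with 1 array left out, and by 50 without 72 h replicate 3. The removal of single arrays and the median of the early arrays (26 probes) were chosen after seeing the data. For 19 named members, 155 of 190 recomputed differences moved by less than 1 SD, 32 moved further (27 toward 0) and 3 changed sign, all in the sample channel, namely Sltm (-0.43), Exosc1 (-0.28) and Rps9 (-0.023). The difference of both low-signal arrays from fed was -0.76, and -0.20 after quantile, -0.19 after loess normalization and -0.061 in the sample channel.

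Calls by limma moved most. For 24 h against 12 h they were 0 except with array weights (96, with 0 late-rise probes). For 72 h against fed, 2 of 20081 probes were called, and 0 after loess or on the deposited ratio. With single arrays left out, 1 to 4 were called (4 without either low-signal array). The count was 168 of 20104 without the low-signal arrays, 143 of 20081 with the quantification day as a block and 682 of 20081 with array weights. Of the 31 late-rise probes, 3, 0 and 10 were called under these 3 settings. For 72 h against 24 h the 0 calls became 262 of 20109, 1744 of 20087 and 841 of 20087 under the same 3 settings. They held 2, 4 and 20 of the 31 late-rise probes. With the day as a block, 72 h and 24 h are linked only through the day of fed replicate 1 and both low-signal arrays. The rule used both of these contrasts, so that the counts of late-rise probes are descriptions. The cause was not tested. With the replicate number as a block (replicate block), 0, 2 and 0 probes were called in the 3 comparisons and 0 late-rise probes. Same-numbered arrays deviated together with r from -0.65 to 0.63, and 7 of 36 comparisons were highest for the own number, so that the numbers were not taken as pairs. Dim probes near background and 3 pooled arrays per group limit all of these values.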
